A study of Mus musculus with 3 samples.

Results

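Nrp1, Nrp2, Sema4a, Sema4b, Sema4d, Sema7a, Plxnb2 and Plxnd1 are 8 genes of the neuropilin, semaphorin and plexin families, chosen by name with their values in these arrays already known. They were measured by 19 probe sets that carried only 1 of these gene symbols, of 45037 probe sets in all, and they are 8 of 18193 named genes. Semaphorins are secreted or membrane-bound guidance proteins. Plexins are their signalling receptors, whose cytoplasmic part acts on small GTPases and so on the cytoskeleton and adhesion, and neuropilins are co-receptors that also bind VEGF. In the immune system these proteins take part in contacts between T cells, B cells and dendritic cells, and in mice neuropilin-1 marks many regulatory T cells that arise in the thymus.

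RNA came from CD4+CD25- T cells of spleen and lymph node of female mice, 6 to 8 weeks old, on a BALB/c background and lacking both Stat6 and T-bet (gene Tbx21), the transcription factors of Th2 and Th1 cells. All cultures carried this double knockout and were activated for 2 days by anti-CD3 bound to the plate (5 µg/ml) together with anti-CD28 (1 µg/ml). The cultures differed in cytokines, namely IL-6 at 10 ng/ml with TGFbeta at 5 ng/ml (IL-6/TGFbeta), IL-6 and IL-23, each at 10 ng/ml (IL-6/IL-23), or TGFbeta at 5 ng/ml alone (TGFbeta). Each condition was measured on 1 Affymetrix array, so ratios compare arrays, carry no p-value and have no replicate check. How many mice stood behind a culture is not given in the labels. The study set IL-6/TGFbeta against TGFbeta to find genes of Th17 polarization, and against IL-6/IL-23 to single out genes tied to IL-10. The first pair differs by IL-6 alone, the other in both TGFbeta and IL-23, and IL-6/IL-23 against TGFbeta in all 3 cytokines.

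Levels are quantile-normalized intensities in arbitrary units, and levels of different probe sets cannot be set against each other. The deposited arrays had medians of 28.1 with IL-6/TGFbeta, 17.8 with IL-6/IL-23 and 35.8 with TGFbeta. The floor, below which a level was not read, was 35.1. It was the level under which 95% of the values of 92 probe sets for genes of liver, muscle, lens, testis and similar tissues lay. Where only 1 of the arrays compared was above it, the ratio is a bound. A gene counted as higher or lower from a 2-fold difference on, read on its brightest probe set. The only available error is the spread of log2 ratios between probe sets of the same gene, taken from the median absolute deviation. Its SD was 0.24 between IL-6/TGFbeta and TGFbeta over 4394 genes, 0.30 between the cultures with IL-6 over 4300, and 0.32 between IL-6/IL-23 and TGFbeta over 4345. It leaves out differences between cultures, mice and arrays. In bulk RNA, fewer cells of a type and less RNA per cell cannot be told apart. All 3 arrays gave levels above the floor for the 11 measured T cell identity genes. Of these, 1 was higher and 0 lower with IL-6/IL-23 than with TGFbeta (median 0.05), and 0 were 2-fold apart in the other pairs (medians 0 for IL-6/TGFbeta over TGFbeta and -0.03 for IL-6/TGFbeta over IL-6/IL-23). The higher gene was Cd28, the costimulatory receptor that anti-CD28 binds, at 2840 with IL-6/TGFbeta, 5316 with IL-6/IL-23 and 1770 with TGFbeta (1.59). All arrays also gave levels above the floor for the deleted genes, Stat6 at 223 with IL-6/TGFbeta, 191 with IL-6/IL-23 and 259 with TGFbeta, and Tbx21 at 118 with IL-6/TGFbeta, 205 with IL-6/IL-23 and 190 with TGFbeta. Where in either gene the deletion lies is not stated.

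Of the 8 genes, 7 had a probe set above the floor on at least 1 array, and 5 were above it on all 3 arrays (Nrp1, Sema4a, Sema4b, Sema4d and Sema7a). Plxnd1 was above it on the IL-6/IL-23 and TGFbeta arrays, Nrp2 on the IL-6/TGFbeta array alone, and Plxnb2 on none. Of the 19 probe sets 12 were above the floor on at least 1 array and 7 were not. The plot of levels by array shows these patterns, with Nrp1 and the class 4 semaphorins Sema4a and Sema4b brightest with TGFbeta, and Sema4d dimmest with IL-6/IL-23.

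**Figure D1:**
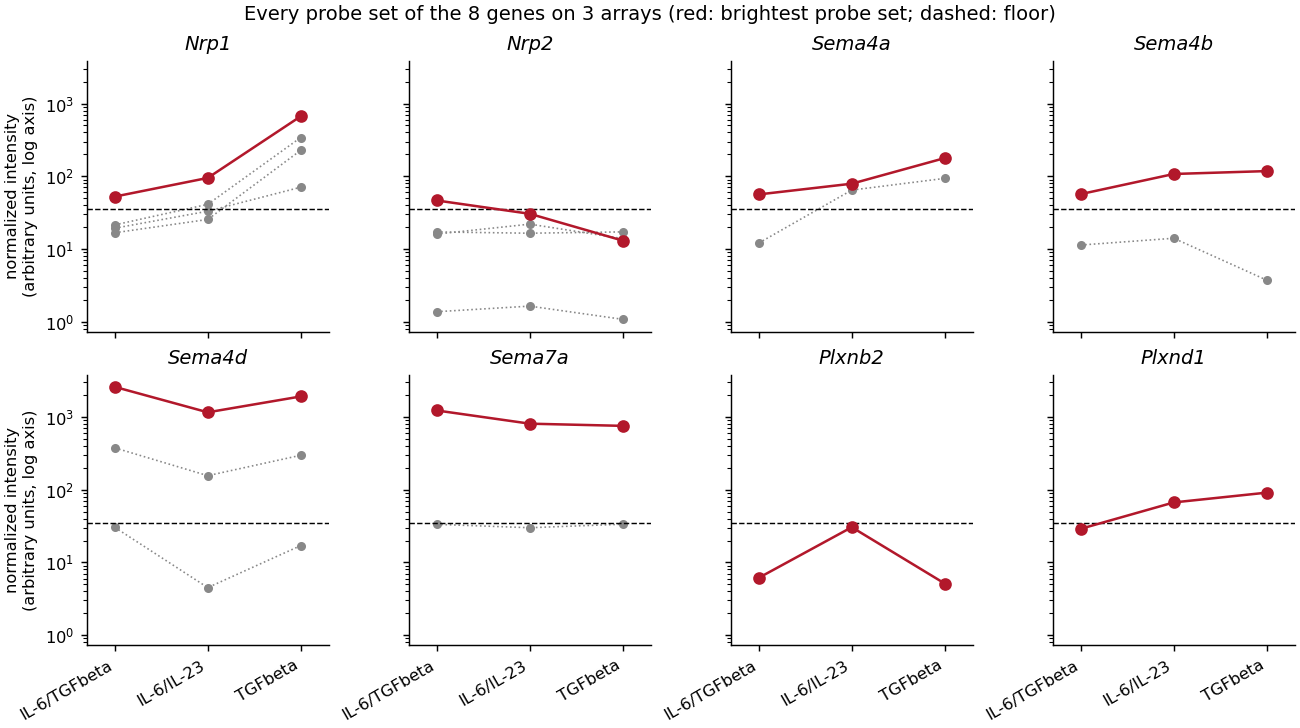
Normalized intensity (arbitrary units, log axis) of each of the 19 probe sets of the 8 genes on the IL-6/TGFbeta, IL-6/IL-23 and TGFbeta arrays, 1 array each, so there are no error bars. Red points joined by solid lines are the brightest probe set of a gene, grey points joined by dotted lines the others, and the dashed line is the floor at 35.1. All 4 probe sets of Nrp1 are highest on the TGFbeta array, and Plxnb2 lies below the floor on all 3 arrays.

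Nrp1 encodes neuropilin-1, a co-receptor for class 3 semaphorins and VEGF that also binds TGFbeta. Its brightest probe set, 1448943_at, read 52.4 with IL-6/TGFbeta, 94.7 with IL-6/IL-23 and 667 with TGFbeta. The TGFbeta culture stood far above both cultures with IL-6. As deposited, before normalization, the same probe set read 55.1 with IL-6/TGFbeta, 64.5 with IL-6/IL-23 and 911 with TGFbeta. The level was 12.7-fold lower with IL-6/TGFbeta than with TGFbeta (log2 ratio -3.67), a difference 15.1 times the probe-set spread, and 2 of 10348 genes had a lower ratio in that pair. It was 7.04-fold lower with IL-6/IL-23 than with TGFbeta (-2.82), with 19 of 10443 genes lower still.

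The other probe sets of Nrp1 had the same order of TGFbeta over both cultures with IL-6. Probe set 1418084_at read 21.4 and 41.0 in the IL-6/TGFbeta and IL-6/IL-23 cultures, against 340 in the TGFbeta culture. Probe set 1448944_at read 16.7 with IL-6/TGFbeta, 25.4 with IL-6/IL-23 and 227 with TGFbeta, and 1457198_at read 19.3 with IL-6/TGFbeta, 33.0 with IL-6/IL-23 and 70.5 with TGFbeta. These 3 probe sets fell below the floor with IL-6/TGFbeta, so their ratios to TGFbeta are bounds of -3.28, -2.69 and -1.01. Between the cultures with IL-6, Nrp1 was lower with IL-6/TGFbeta by a log2 ratio of -0.85, which is 2.83 times the spread but under 2-fold. Without scaling between arrays that ratio was -0.23, so the size of this difference depends on the normalization.

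The Nrp1 gene lies at chr8:128358591-128505476 in GRCm38.p6. Its promoter window from RefSeq, 250 bases before to 50 after the start site, is shown with the most upstream of the 4 windows of Sema4a, the other gene that was at least 2-fold lower in both cultures with IL-6 than with TGFbeta, and that of the 3 windows of Sema4d that held an AP-1 match. Sema4d was the 1 gene at least 2-fold higher with IL-6/TGFbeta than with IL-6/IL-23. Windows were searched on both strands for the letters CAGAC, the core that SMAD proteins bind downstream of TGFbeta, the longer CAGA box AGCCAGACA that contains it, the AP-1 motif TGANTCA, the STAT motif TTCNNNGAA, the forkhead motif GTAAACA and the RUNX motif TGTGGTT. Capitals mark the matches, which are CAGAC or its reverse complement GTCTG, and 1 AP-1 match in Sema4d. In TGANTCA the N stood for any base, and that match was TGAATCA. Matches with only C or G at N were not counted apart.
Nrp1, GRCm38.p6 chr8:128358823-128359122, plus strand: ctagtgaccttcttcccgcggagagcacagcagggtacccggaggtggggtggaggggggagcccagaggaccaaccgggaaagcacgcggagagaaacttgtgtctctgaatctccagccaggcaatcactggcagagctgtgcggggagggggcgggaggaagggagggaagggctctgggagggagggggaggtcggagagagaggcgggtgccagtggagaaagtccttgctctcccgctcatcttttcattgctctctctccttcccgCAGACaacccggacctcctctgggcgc
Sema4a, GRCm38.p6 chr3:88461133-88461432, minus strand: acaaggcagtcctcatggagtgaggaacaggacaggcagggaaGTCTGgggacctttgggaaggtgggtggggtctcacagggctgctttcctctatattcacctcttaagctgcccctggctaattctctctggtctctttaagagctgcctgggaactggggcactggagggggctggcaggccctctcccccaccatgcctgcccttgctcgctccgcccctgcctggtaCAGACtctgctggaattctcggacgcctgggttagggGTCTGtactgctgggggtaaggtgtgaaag
Sema4d, GRCm38.p6 chr13:51748761-51749060, minus strand: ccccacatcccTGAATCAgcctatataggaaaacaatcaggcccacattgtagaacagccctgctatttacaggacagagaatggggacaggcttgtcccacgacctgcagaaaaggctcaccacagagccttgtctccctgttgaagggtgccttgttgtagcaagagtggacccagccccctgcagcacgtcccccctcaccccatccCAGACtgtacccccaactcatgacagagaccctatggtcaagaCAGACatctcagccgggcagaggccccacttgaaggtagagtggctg

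CAGAC was found in 49.6% of all 32851 promoter windows in the RefSeq table, so its presence in these windows is common. The Sema4a window shown held 3 matches, and the others of Sema4a held 0, 4 and 1. The AP-1 motif was in 7.81% of all windows, the STAT motif in 8.30%, the forkhead motif in 3.65%, the RUNX motif in 5.27% and the CAGA box in 0.387%. The last 4 of these had no match in any of the 15 windows of the 8 genes. The search for CAGAC alone was added after the longer box gave no match. A match describes letters and is not a binding site.

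Sema4a is a transmembrane semaphorin of dendritic cells and T cells that binds plexins, Tim-2 and, on mouse regulatory T cells, neuropilin-1. Its brightest probe set read 56.2 with IL-6/TGFbeta, 78.9 with IL-6/IL-23 and 178 with TGFbeta. It was 3.16-fold lower with IL-6/TGFbeta than with TGFbeta (-1.66) and 2.25-fold lower with IL-6/IL-23 than with TGFbeta (-1.17). This probe set, 1438934_x_at, is of the kind whose name warns of probes shared with other transcripts. The other, 1448110_at, read 12.0 with IL-6/TGFbeta, 64.4 with IL-6/IL-23 and 93.3 with TGFbeta, and so was also highest with TGFbeta. It gave a bound of -1.41 for IL-6/TGFbeta over TGFbeta, a ratio of -0.54 for IL-6/IL-23 over TGFbeta, and a bound of -0.88 for IL-6/TGFbeta over IL-6/IL-23, where the brightest gave -0.49. Both probe sets thus place TGFbeta highest and IL-6/TGFbeta lowest, while the position of the IL-6/IL-23 culture between them differed. Without scaling the brightest gave 0.15 between the cultures with IL-6, so their order turns with the normalization. With the mean of both probe sets, IL-6/IL-23 over TGFbeta was -0.85, under the 2-fold rule.

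Sema4b, a transmembrane semaphorin found on T and B cells, read 56.8 with IL-6/TGFbeta, 107 with IL-6/IL-23 and 118 with TGFbeta. Here the IL-6/TGFbeta culture stood apart, and the IL-6/IL-23 and TGFbeta cultures differed by -0.13, less than the spread. Without scaling that difference was -1.19, so which culture stood apart depends on the normalization. Sema4b was 2.07-fold lower with IL-6/TGFbeta than with TGFbeta (-1.05, just past the 2-fold rule) and 1.89-fold lower than with IL-6/IL-23 (-0.92, just short of it, and -0.29 without scaling). The other probe set of Sema4b was below the floor on all arrays. The gene lies at chr7:80186870-80226646.

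Sema4d, or CD100, is carried by resting and activated T cells, binds plexin B1, plexin B2 and, on B cells, CD72, and is released from the cell surface by proteolysis. It read 2600.4 with IL-6/TGFbeta, 1162 with IL-6/IL-23 and 1921 with TGFbeta. The IL-6/IL-23 culture was the low one. Sema4d was 2.24-fold higher with IL-6/TGFbeta than with IL-6/IL-23 (1.16, or 3.85 times the spread), and another probe set, 1420823_at, read 377 with IL-6/TGFbeta and 156 with IL-6/IL-23 (1.27). It differed from TGFbeta by 0.44 and 0.34 on these probe sets with IL-6/TGFbeta, and by -0.73 and -0.93 with IL-6/IL-23. Without scaling the brightest gave -0.02 for IL-6/TGFbeta over TGFbeta, so whether IL-6/TGFbeta was highest depends on the normalization. The third probe set was below the floor throughout. With the mean of its probe sets Sema4d was lower by the 2-fold rule with IL-6/IL-23 than with TGFbeta (-1.19). That mean includes the third probe set, which read 4.50 with IL-6/IL-23 and 17.0 with TGFbeta, both below the floor. With the arrays scaled to a common median the ratio of IL-6/TGFbeta to IL-6/IL-23 was 0.94, under the 2-fold rule.

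Sema7a, a semaphorin held to the membrane by a glycolipid anchor and present on activated T cells, binds the integrin α1β1 and plexin C1. It read 1232 with IL-6/TGFbeta, 811 with IL-6/IL-23 and 757 with TGFbeta. The IL-6/TGFbeta culture was the highest and the other cultures differed by 0.10, less than the spread. The ratios of 0.70 to TGFbeta and 0.60 to IL-6/IL-23 were 2.89 and 2.00 times the spread and under 2-fold. Without scaling, IL-6/TGFbeta over TGFbeta was 0.24 and IL-6/IL-23 over TGFbeta was -0.78. Which culture stood apart thus depends on the normalization. The other probe set of Sema7a was below the floor on all arrays.

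Among the receptors, Plxnd1 encodes plexin D1, the receptor of Sema3e, which guides thymocytes and blood vessels. Its only probe set read 29.0 with IL-6/TGFbeta, 66.9 with IL-6/IL-23 and 91.2 with TGFbeta, the first of these below the floor. The IL-6/TGFbeta level lay at least 2.60-fold below TGFbeta and at least 1.91-fold below IL-6/IL-23 (-0.93). That second bound was -0.15 without scaling between arrays and -0.27 with the floor at the 99th percentile, so it depends on both. The IL-6/IL-23 and TGFbeta cultures differed by -0.45, which is 1.41 times the spread. Raising the floor to the 99th percentile of the tissue-restricted probe sets ended the count as 2-fold lower, since the bound then became -0.72.

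Plxnb2 encodes plexin B2, a receptor of class 4 semaphorins. It read 6.14 with IL-6/TGFbeta, 30.5 with IL-6/IL-23 and 5.12 with TGFbeta, all below the floor, and no ratio was read. Nrp2 encodes neuropilin-2, the co-receptor related to neuropilin-1. Its brightest probe set read 46.3 with IL-6/TGFbeta, 30.4 with IL-6/IL-23 and 13.0 with TGFbeta. It was above the floor with IL-6/TGFbeta alone, with a bound of at least 1.32-fold over both others, and its 3 further probe sets were below the floor on all arrays. The 99th percentile of the tissue-restricted probe sets, 55.5, lay above its level.

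In counts, 4 of the 8 genes (Nrp1, Sema4a, Sema4b and Plxnd1) were at least 2-fold lower with IL-6/TGFbeta than with TGFbeta and 0 were higher. Of 10348 genes above the floor on at least 1 of these arrays, 2.34% were lower and 2.98% higher by the same rule. With IL-6/IL-23 against TGFbeta, 2 genes (Nrp1 and Sema4a) were lower, where 3.59% of 10443 genes were, and 0 were higher, where 3.99% were. With IL-6/TGFbeta against IL-6/IL-23, Sema4d was the 1 higher gene, where 4.19% of 10599 genes were higher, and 0 were lower, where 3.93% were. The median log2 ratios of the members above the floor in each pair were -1.05, -0.59 and -0.49 in the order of these sentences, beside 0.03, 0.07 and -0.04 over all such genes, with bounds entered as they stand. The 8 genes were chosen with these values known, and the 3 pairs share arrays, so the counts are a description of the choice. The plot of ratios by probe set gives each pair side by side.

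**Figure D2:**
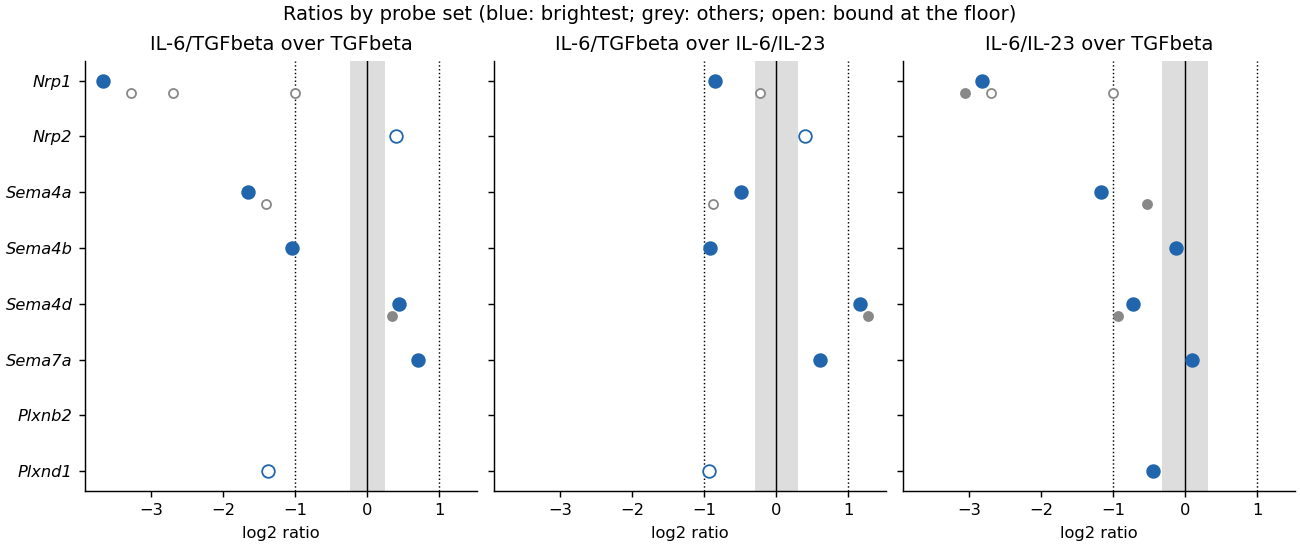
Log2 ratio (x axis) of each probe set of the 8 genes in the 3 pairs of arrays, with the brightest probe set in blue and the others in grey. Open circles are bounds with 1 array at the floor, the grey band is 1 SD of the probe-set spread, dotted lines mark 2-fold, and probe sets at the floor on both arrays are not drawn. Nrp1 lies at -3.67 and -2.82 against TGFbeta, and Sema4d alone lies beyond 2-fold on its brightest probe set for IL-6/TGFbeta over IL-6/IL-23 (1.16).

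The named genes whose profile over the 3 arrays lay nearest to each member were found by Euclidean distance between log2 levels centred on their mean, among genes above the floor on the same arrays. Levels below the floor were first raised to it. For Nrp1 these were Sntb1 (0.72), the activation-induced nuclear receptor Nr4a3 (0.74) and Igfbp7 (0.81) of 9079 genes. Nr4a3 read 522 with IL-6/TGFbeta, 943 with IL-6/IL-23 and 3556 with TGFbeta. For Sema4a they were the transcription factor Irf5, the phosphatase Dusp5 and Cmtm7, all within 0.06. For Sema4d the nearest was Smad7, an inhibitor of TGFbeta signalling, at 0.0089, with levels of 462 with IL-6/TGFbeta, 205 with IL-6/IL-23 and 341 with TGFbeta. Next to Sema4d came Fcsk and Tmem184b, and next to Sema4b came Usp18, 4930523C07Rik and Rccd1. For Plxnd1 the nearest of 225 genes were Sidt1, Ppp3ca and Eomes. Like Plxnd1 they were below the floor with IL-6/TGFbeta and were entered at the floor there. Eomes read 6.69 on that array, so its nearness does not cover that level. With 3 arrays, many genes share a profile by their shape alone.

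Beyond the 8 genes, all 23 other semaphorin and plexin genes of the list used here were on the array, and 13 were above the floor on at least 1 array. Of 11 of them measured in the pair, 1 was higher with IL-6/TGFbeta than with TGFbeta and 0 were lower (median 0.09). Of 11 measured, 2 were higher with IL-6/IL-23 than with TGFbeta and 0 lower (median 0.38), and of 12 measured, 0 were higher and 1 lower with IL-6/TGFbeta than with IL-6/IL-23 (median -0.21). The higher gene in the first was Sema4f, a transmembrane semaphorin, which read 453 with IL-6/TGFbeta, 393 with IL-6/IL-23 and 76.6 with TGFbeta. On its brightest probe set Sema4f thus had the opposite order to Sema4a and Nrp1, with both cultures with IL-6 above TGFbeta, at ratios of 2.57 and 2.36. That probe set, 1439768_x_at, is of the kind whose name warns of probes shared with other transcripts. A further probe set, 1419328_at, read 100.2 with IL-6/TGFbeta, 130 with IL-6/IL-23 and 51.3 with TGFbeta, with ratios of 0.96 and 1.34. There IL-6/TGFbeta over TGFbeta was under 2-fold, and IL-6/IL-23 was the highest.

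Plxnc1, which encodes the plexin that binds Sema7a, read 61.5 with IL-6/TGFbeta, 157 with IL-6/IL-23 and 59.0 with TGFbeta. It was highest in the IL-6/IL-23 culture, by 1.42 over TGFbeta, and IL-6/TGFbeta stood at -1.35 to it. A further probe set, 1423213_at, read 56.9 with IL-6/TGFbeta, 93.6 with IL-6/IL-23 and 51.1 with TGFbeta and had the same order with smaller ratios (0.87 and -0.72). Probe set 1423214_at of Plxnc1 was above the floor with IL-6/IL-23 alone (51.7). Another, 1443434_s_at, was above it with TGFbeta alone (36.4, just past the floor) and so did not have this order. The ligands of the neuropilins in class 3 were mostly at the floor, since Sema3a, Sema3b, Sema3c, Sema3d, Sema3e and Sema3g were below it on all arrays and Sema3f read 39.6 with IL-6/IL-23 alone above it. Sema3e, a ligand of plexin D1, was thus below the floor on the arrays where its receptor was above it. Sema4a, which also binds plexins, was above the floor on all arrays on its brightest probe set.

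**Figure D3:**
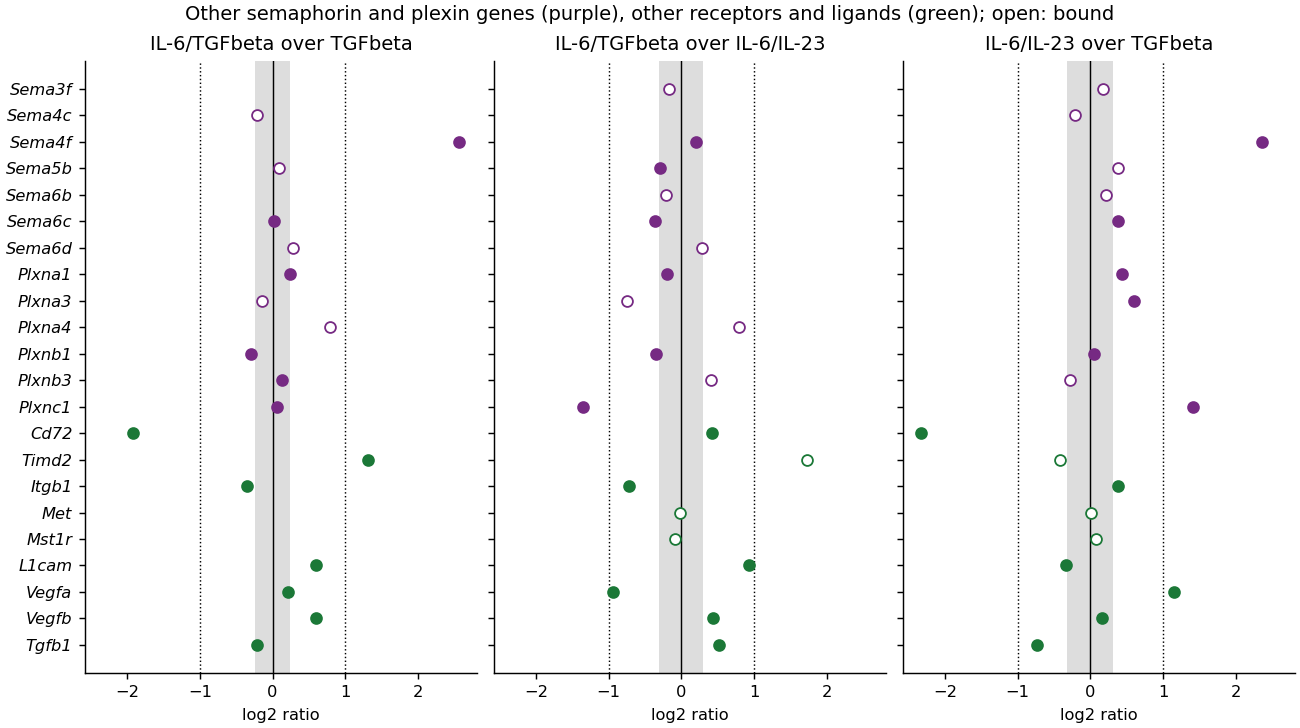
Log2 ratio (x axis) of the 13 other semaphorin and plexin genes (purple) and 9 other receptors and ligands (green) that were above the floor on at least 1 array, in the 3 pairs of arrays. Open circles are bounds, the grey band is 1 SD of the probe-set spread, dotted lines mark 2-fold, and genes at the floor on both arrays are not drawn. Sema4f lies at 2.57 and 2.36 over TGFbeta, and Cd72 at -1.92 and -2.33.

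Of 18 other receptors, co-receptors and ligands, 9 were above the floor on at least 1 array. Of those measured in each pair, 1 of 7 was higher and 1 lower with IL-6/TGFbeta than with TGFbeta (median 0.21), 1 of 9 higher and 1 lower with IL-6/IL-23 than with TGFbeta (median 0.01), and 1 of 9 higher and 0 lower with IL-6/TGFbeta than with IL-6/IL-23 (median 0.42). Cd72, the receptor of Sema4d on B cells, read 61.5 with IL-6/TGFbeta, 46.0 with IL-6/IL-23 and 232 with TGFbeta. Like Nrp1 it was highest with TGFbeta, with ratios of -1.92 and -2.33. Timd2, which encodes the Sema4a receptor Tim-2, read 117 with IL-6/TGFbeta, 5.39 with IL-6/IL-23 (under the floor) and 47.0 with TGFbeta. Its ratios were 1.31 to TGFbeta and at least 3.32-fold over IL-6/IL-23, so it stood highest with IL-6/TGFbeta. Vegfa, a ligand of neuropilin-1, read 86.2 with IL-6/TGFbeta, 166 with IL-6/IL-23 and 74.3 with TGFbeta, and was 1.16 higher on the log2 scale with IL-6/IL-23 than with TGFbeta. Tgfb1 read 1722 with IL-6/TGFbeta, 1200.4 with IL-6/IL-23 and 2000 with TGFbeta and was under 2-fold in every pair.

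Of 29 measured genes of intracellular semaphorin signalling, 26 were above the floor on at least 1 array. Of those measured in each pair, 1 of 22 was higher and 0 lower with IL-6/TGFbeta than with TGFbeta (median 0.24), 0 of 26 higher and 1 lower with IL-6/IL-23 than with TGFbeta (median 0.05), and 3 of 26 higher and 0 lower with IL-6/TGFbeta than with IL-6/IL-23 (median 0.08). Crmp1, a collapsin response mediator protein, read 266 with IL-6/TGFbeta, 92.6 with IL-6/IL-23 and 133 with TGFbeta (1.01 over TGFbeta and 1.52 over IL-6/IL-23). Mical1, an enzyme that acts on actin, read 738 with IL-6/TGFbeta, 319 with IL-6/IL-23 and 494 with TGFbeta (1.21 over IL-6/IL-23), and a further probe set gave 0.95. The kinase gene Fes read 128 with IL-6/TGFbeta, 56.7 with IL-6/IL-23 and 84.7 with TGFbeta (1.18 over IL-6/IL-23). On these probe sets, at normalized levels, the 3 genes had the order of Sema4d, highest with IL-6/TGFbeta and lowest with IL-6/IL-23. Those of Mical1 and Fes, 1456439_x_at and 1427368_x_at, are of the kind whose name warns of probes shared with other transcripts. The other probe set of Fes above the floor, 1452410_a_at, read 149 with IL-6/TGFbeta, 65.9 with IL-6/IL-23 and 60.2 with TGFbeta, and so was lowest with TGFbeta. It gave 1.18 over IL-6/IL-23 and 1.31 over TGFbeta, where the first gave 0.60. Mical3 read 64.1 with IL-6/TGFbeta and 81.0 with TGFbeta and was under the floor otherwise, so that its IL-6/IL-23 level lay at least 2.31-fold below that with TGFbeta. Of 3 proteases that shed membrane semaphorins, 0 were 2-fold apart in any pair, with medians of -0.47 to TGFbeta and -0.26 to IL-6/IL-23 for IL-6/TGFbeta and 0.26 for IL-6/IL-23 over TGFbeta. Adam10 read 1940 with IL-6/TGFbeta, 1452 with IL-6/IL-23 and 2773 with TGFbeta.

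Nrp1 is used as a mark of regulatory T cells, so their genes were set beside it. Of 11 regulatory T cell genes, 1 was higher and 2 lower with IL-6/TGFbeta than with TGFbeta (median -0.13), 1 higher and 7 lower with IL-6/IL-23 than with TGFbeta (median -1.39), and 5 higher and 1 lower with IL-6/TGFbeta than with IL-6/IL-23 (median 0.91). The summed level of the 11 genes was 11260 with IL-6/TGFbeta, 9899 with IL-6/IL-23 and 11540 with TGFbeta. These sums rest mostly on the bright probe sets of Il2ra, Ctla4, Tnfrsf18 and Izumo1r, so no difference was read from them. Il2ra read 3297 with IL-6/TGFbeta, 2803 with IL-6/IL-23 and 2390 with TGFbeta. Foxp3 read 232 with IL-6/TGFbeta and 498 with TGFbeta, and with IL-6/IL-23 its level, 22.5, lay below the floor. Foxp3 was 2.15-fold lower with IL-6/TGFbeta than with TGFbeta (-1.10), the same direction as Nrp1. Ikzf2, the Helios gene, had the order of Nrp1 in a smaller range, at 156 with IL-6/TGFbeta, 235 with IL-6/IL-23 and 309 with TGFbeta. The ectoenzyme gene Nt5e read 456 with IL-6/TGFbeta, 43.0 with IL-6/IL-23 and 498 with TGFbeta, and Gpr83 read 495 with IL-6/TGFbeta, 155 with IL-6/IL-23 and 518 with TGFbeta, so both were nearly level between the cultures with TGFbeta. Entpd1 read 371 with IL-6/TGFbeta and 214 with TGFbeta, and its IL-6/IL-23 level was below the floor. Its probe set 1450939_at read 65.8 with IL-6/TGFbeta and 73.3 with TGFbeta, the other direction (-0.15), and was also below the floor with IL-6/IL-23. Ikzf4, Itgae and Izumo1r were also lowest with IL-6/IL-23. Ikzf4 read 413 with IL-6/TGFbeta, 157 with IL-6/IL-23 and 426 with TGFbeta. Itgae read 91.0 with IL-6/TGFbeta, 48.4 with IL-6/IL-23 and 108 with TGFbeta. Its probe set 1449216_at gave -0.47 for IL-6/IL-23 over TGFbeta, under 2-fold. Izumo1r read 1685 with IL-6/TGFbeta, 974 with IL-6/IL-23 and 2555 with TGFbeta. Ctla4 read 2967 with IL-6/TGFbeta, 2578 with IL-6/IL-23 and 1153 with TGFbeta, and Tnfrsf18 read 1096 with IL-6/TGFbeta, 2850 with IL-6/IL-23 and 2872 with TGFbeta.

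Markers of other cells that carry these proteins were mostly at the floor. The summed levels of their lists include genes below it, so no difference was read from them. Of 9 myeloid and dendritic cell markers 2 were above it, Csf1r (79.4 with IL-6/TGFbeta, 40.1 with IL-6/IL-23 and 63.2 with TGFbeta) and Mpeg1, a macrophage gene that was above it with TGFbeta alone (153) and so at least 4.35-fold lower in both cultures with IL-6. Itgam, Itgax, Lyz2, Adgre1, Cd14, Siglech and Flt3 were below the floor on all arrays. The list summed to 246 with IL-6/TGFbeta (1 gene above the floor), 146 with IL-6/IL-23 (1 gene) and 306 with TGFbeta (2 genes). Of 7 B cell markers 4 were above the floor, none 2-fold apart and the highest level being 54.0 (Cd22 with IL-6/TGFbeta), with a sum of 236 with IL-6/TGFbeta, 165 with IL-6/IL-23 and 215 with TGFbeta, and Cd79b, Pax5 and Cr2 were below it throughout. Of 11 endothelial and stromal markers 1 was above the floor, Col1a2 with TGFbeta (48.2), so its sums of 147 with IL-6/TGFbeta, 156 with IL-6/IL-23 and 159 with TGFbeta are nearly all background. Of 5 markers of CD8 T cells and NK cells 3 were above it, none 2-fold apart, with a sum of 256 with IL-6/TGFbeta, 345 with IL-6/IL-23 and 311 with TGFbeta. Cd8a read 80.2 with IL-6/TGFbeta, 120 with IL-6/IL-23 and 145 with TGFbeta, and Cd8b1 read 104, 174 and 140 in the same order. Both were above the floor on all arrays, and Klrd1 was above it with IL-6/TGFbeta alone (53.0). Mpeg1 was thus highest with TGFbeta, as were Nrp1, Sema4a and Cd72, while Csf1r was highest with IL-6/TGFbeta (0.33 over TGFbeta). The part of other cells in these results was not tested.

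The plot of settings shows that Nrp1, Sema4a and Sema4b stayed at least 2-fold lower with IL-6/TGFbeta than with TGFbeta under every setting that gave a value, with ranges of -4.05 to -2.81, -2.08 to -1.66 and -1.48 to -1.05. For Sema4b the mean of its probe sets gave none. Over all genes, 56.0%, 51.6% and 52.7% of the genes 2-fold apart were higher for IL-6/TGFbeta over TGFbeta, IL-6/TGFbeta over IL-6/IL-23 and IL-6/IL-23 over TGFbeta. Without scaling these shares were 15.9%, 89.4% and 2.49%, and the ratios of genes above the floor on both arrays had medians of -0.42, 0.43 and -0.86. Median scaling gave 44.7%, 38.7% and 54.2% (medians -0.08, -0.20 and 0.12), and scaling to the hybridization controls gave 47.5%, 65.1% and 33.8%. The unscaled ratio of Nrp1 to TGFbeta, -4.05 with IL-6/TGFbeta and -3.82 with IL-6/IL-23, exceeded these shifts. For the pairs with the IL-6/IL-23 array, the dimmest one, the other members depended more on the scaling. Without it Sema4b, Sema4d and Plxnd1 joined Nrp1 and Sema4a as at least 2-fold lower with IL-6/IL-23 than with TGFbeta, at -1.19, -1.63 and -1.53, and Sema7a had a ratio of -0.78 there and 1.03 for IL-6/TGFbeta over IL-6/IL-23. Over all genes without scaling, 3596 of 10325 were also at least 2-fold lower with IL-6/IL-23 than with TGFbeta. For IL-6/TGFbeta over IL-6/IL-23, 1256 of 9894 were at least 2-fold higher.

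**Figure D4:**
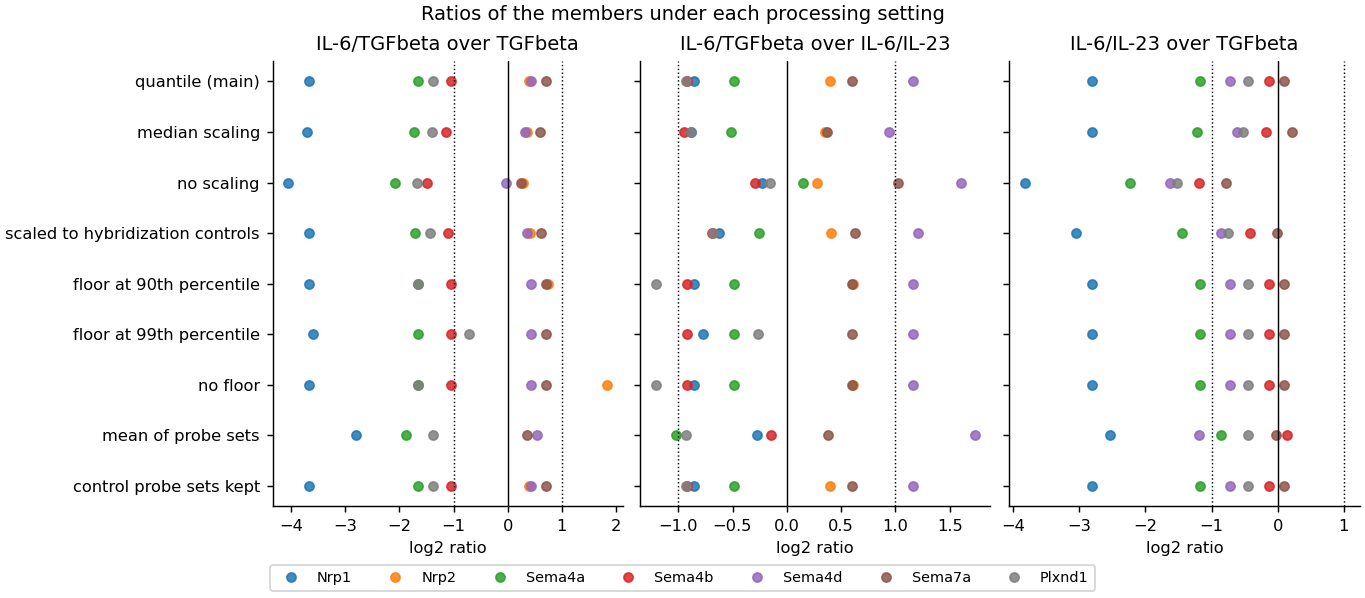
Log2 ratio (x axis) of each member above the floor in the 3 pairs of arrays, under the main setting (top) and 8 alternatives (rows), with 1 colour per gene and dotted lines at 2-fold. Nrp1 keeps ratios of -2.53 or lower for both cultures with IL-6 against TGFbeta, and between the cultures with IL-6 it lies between -0.88 and -0.23.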

How the data were processed

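RNA of 3 cultures was measured on Affymetrix mouse arrays with biotin-labelled cRNA, per the labels' protocols. The authors deposited 1 linear intensity for each probe set on each array. How probes were summarized, scaled or corrected for background is not given in the sources used here. Without the 64 control probe sets among 45101, log2 intensities were quantile-normalized (limma 3.58.1, R 4.3.3), because array medians differed by more than 10%. This removes any real difference in total mRNA. Probe sets were named from the platform annotation. Of these, 34945 carried 1 gene symbol, 932 several (not used) and 9160 none, and 34741 matched a gene in the RefSeq table of GRCm38.p6, with 0 symbols changed. A gene was read on its probe set of highest mean. The floor, the 2-fold rule and the probe-set spread (from the median absolute deviation) are given with the results. The calling step was tested on simulated data.

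The members, gene lists, floor genes and motifs were chosen with earlier results of these data known, and named genes followed a fixed rule. It took all 8 members, the genes of each list that were 2-fold apart in any pair (at most 8 a list), and the 3 genes nearest in profile to each member that was 2-fold apart. Values for other list genes were chosen after they were seen. There was 1 array per condition, so no test was run, and the number of arrays limits the precision. The 9 alternatives were 3 scalings, 3 floors, a 1.5-fold rule, averaging the probe sets of a gene, and control probe sets kept.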

Additional observations from a re-analysis of the deposited data

How the results depend on the processing

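Of 155 single ratios recomputed under the alternatives, 123 moved by less than the probe-set spread, 32 moved by more and 0 of those called changed sign. A lower floor or none cannot change a ratio with both arrays above the floor, so part of the 123 was fixed in advance. Without scaling, every ratio except those of Nrp2 moved by more than the spread. The counts of members changed as follows, and the cause was not tested unless named. For IL-6/TGFbeta over IL-6/IL-23, with 1 higher and 0 lower as reported, median scaling gave 0 higher, no scaling 2 higher, and the 1.5-fold rule 2 higher and 3 lower. The floor at the 90th percentile (Plxnd1), no floor (Plxnd1) and the mean of probe sets (Sema4a, a bound of -1.02) each gave 1 lower in that pair. For IL-6/TGFbeta over TGFbeta, with 0 higher as reported, no floor (Nrp2, 1.83) and the 1.5-fold rule (Sema7a) each gave 1 higher, and of 4 lower as reported the floor at the 99th percentile (Plxnd1 lost) and the mean of probe sets (Sema4b without a value) each left 3. For IL-6/IL-23 over TGFbeta, with 2 lower as reported, no scaling gave 5, the IL-6/IL-23 array having the lowest deposited median, and the 1.5-fold rule 3 (Sema4d added). The mean of probe sets also gave 2, with Sema4d (-1.19) in place of Sema4a (-0.85). That Sema4d mean includes a probe set below the floor on all arrays. Over all genes, IL-6/TGFbeta over TGFbeta had 308 higher and 242 lower as reported, 149 and 788 without scaling, 915 and 740 by the 1.5-fold rule, and 2158 and 1978 with no floor. For IL-6/TGFbeta over IL-6/IL-23 these were 444 and 417, 1256 and 149, 1153 and 1217, and 2387 and 2462. For IL-6/IL-23 over TGFbeta they were 417 and 375, 92 and 3596, 1195 and 964, and 2496 and 2240. Without scaling, 10583, 9894 and 10325 genes were compared in these pairs, and with no floor 18193 in each. No paired analysis was possible because each condition had 1 array. Signal over background limits Nrp2, Plxnb2 and Plxnd1, which lay near or below the floor. The IL-6/TGFbeta levels of Nrp1 (52.4), Sema4a (56.2) and Sema4b (56.8) were also low, beside a 99th-percentile floor of 55.5. With that floor the ratio of Nrp1 for IL-6/TGFbeta over TGFbeta became a bound of -3.59.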
